A study of Mus musculus with 8 samples.

Results

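The genes described here are 5 that the epithelium of the mouse epididymis is known to express: Gpx5, Adam7, Adam28, Lcn2 and Wfdc2. Every probe set that the platform annotation assigns to 1 of these symbols was taken, which gave 6 probe sets of 13069 used, or 5 genes of the 6137 named on the arrays. Adam7 and Wfdc2 lie on chip A, and Gpx5, Adam28 and Lcn2 (2 probe sets) on chip B. The tissue was epididymal fat, the fat pad attached to the epididymis, from 4 mouse lines on a pair of Affymetrix chips. DU6 is an outbred line bred for high body weight at the age studied here, DU6i was inbred from DU6, DUKs is its unselected control and DBA an inbred strain. What is said here of the lines is general knowledge, since the labels give their names alone. Each line was 1 pool of RNA from 20 untreated males aged 42 days, read on 1 chip A and 1 chip B array. With 1 pool a line there is no replicate, differences between animals are hidden within each pool, and no pair of lines can be tested.

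The epididymis is the coiled duct in which sperm mature and are stored after they leave the testis. Its epithelium secretes proteins that coat or protect the sperm, each made in certain segments of the duct, and many of these genes need androgen. Adipocytes are not known as a main source of Gpx5 or Adam7, whereas Lcn2 and Wfdc2 are made by several other cell types. The part of adipocytes in the signals of Lcn2 and Wfdc2 was not tested.

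Gpx5 encodes a secreted glutathione peroxidase of the head of the epididymis that carries no selenocysteine and protects sperm from peroxides. In GRCm38.p6 the gene lies at chr13:21286429-21292727. Adam7 (chr14:68497336-68533689) encodes a membrane protein of the ADAM family that is made in the epididymis and passed to the surface of mouse sperm. Adam28 (chr14:68604998-68655889) encodes an ADAM metalloprotease known from epididymis and lymphocytes. The genes for Adam7 and Adam28 are 71308 bases apart on chromosome 14, with Adamdec1 and a long non-coding RNA gene between them. Lcn2 (chr2:32384637-32387739) encodes a lipocalin that binds bacterial iron carriers and is known from neutrophil granules, from acute inflammation and from many epithelia. Wfdc2 (chr2:164562715-164568510) encodes a secreted protein with the four-disulfide core of whey acidic protein, first described in the human epididymis and also made by other epithelia.

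The 250 bases before the start of Gpx5, Lcn2 and Wfdc2 are printed because Gpx5 and Lcn2 shared their lowest level in one line while Wfdc2 did not share it. They are from RefSeq on GRCm38.p6, 5′ to 3′ on the strand of the gene, at chr13:21292687-21292936 (minus), chr2:32387740-32387989 (minus) and chr2:164562465-164562714 (plus). Capitals mark AGGAAG or its reverse complement CTTCCT, the core of a PEA3-type ETS site, searched on both strands because ETS factors of this type are known to act on epididymal genes.
Gpx5 promoter: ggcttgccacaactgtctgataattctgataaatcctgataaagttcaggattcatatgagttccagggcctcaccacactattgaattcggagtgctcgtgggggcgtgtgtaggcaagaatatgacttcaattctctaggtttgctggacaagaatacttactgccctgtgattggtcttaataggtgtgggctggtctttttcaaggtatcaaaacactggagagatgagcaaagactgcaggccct
Lcn2 promoter: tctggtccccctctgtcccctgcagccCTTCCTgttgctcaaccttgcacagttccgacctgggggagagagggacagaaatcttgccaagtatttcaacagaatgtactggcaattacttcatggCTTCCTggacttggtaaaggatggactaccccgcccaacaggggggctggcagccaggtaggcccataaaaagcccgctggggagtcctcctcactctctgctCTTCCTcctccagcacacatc
Wfdc2 promoter: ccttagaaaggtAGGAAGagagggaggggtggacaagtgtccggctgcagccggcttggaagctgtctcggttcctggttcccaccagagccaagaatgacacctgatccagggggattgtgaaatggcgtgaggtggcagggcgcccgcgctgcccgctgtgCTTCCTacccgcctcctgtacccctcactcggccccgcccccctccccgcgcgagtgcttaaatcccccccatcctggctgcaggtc
The Lcn2 stretch held 3 matches, whose first bases lie at -223, -124 and -21 from the start, and the Wfdc2 stretch held 2, at -238 and -87. The Gpx5 stretch held none in this window. Of 32851 mouse promoters of the same length, 29.5% held at least 1 match. AGAACA or its reverse complement TGTTCT, the half-site of the androgen and glucocorticoid receptors, was in none of the 3 stretches and in 16.1% of all promoters. The motifs do not overlap. The Gpx5 stretch reaches into the gene span given above, because the promoter table takes a start inside that span. These are matches of letters and not shown to be sites. No promoter of Adam7 or Adam28 is printed.

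Signals are the deposited linear intensities. A floor, the level below which a signal was read as not measured, was set at 1022.8 on chip A and 2258.25 on chip B. A gene called "at least" so many fold higher or lower is set against this floor. Chip A arrays had 3045 to 3334 probe sets above it, and chip B arrays 1639 to 1823. The brightest signals differed between arrays: on chip B the 99th percentile was 49489 in DU6, 34692 in DU6i, 52203 in DUKs and 33622 in DBA, while on chip A it was 18810, 34793, 27552 and 23450 in the same lines. The tissue label was borne out by adipocyte genes. Adipoq (adiponectin) had signals of 21044 in DU6, 48251 in DU6i, 36670 in DUKs and 28894 in DBA, and all 15 adipocyte markers on the arrays were above the floor in at least 1 line.

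DU6i stood apart from the other lines in 4 of the 5 genes. For Gpx5, Adam7, Adam28 and Lcn2 the DU6i signal was below that of each of DU6, DUKs and DBA by at least 2-fold, and for Wfdc2 it was not. Adam28 drops out with the floor doubled (log2 ratio of DU6 over DU6i 0.86), and the count of genes was 3 there and with log2(signal + floor). Among all 4214 probe sets above the floor in those other 3 lines, 61, or 1.45%, were at least 2-fold lower in DU6i against each. The signals of the Gpx5, Adam28 and main Lcn2 probe sets summed to 105789 in DU6, 8634 in DU6i, 86728 in DUKs and 80802 in DBA. In this sum the negative DU6i signal of Gpx5 counted as 0, and the Adam28 signal in DU6i was under the floor. Those of Adam7 and Wfdc2, on chip A, summed to 21566, 8378, 28095 and 26679 in the same lines. In a pool of whole tissue, fewer cells of a type and less RNA per cell cannot be told apart.

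**Figure D1:**
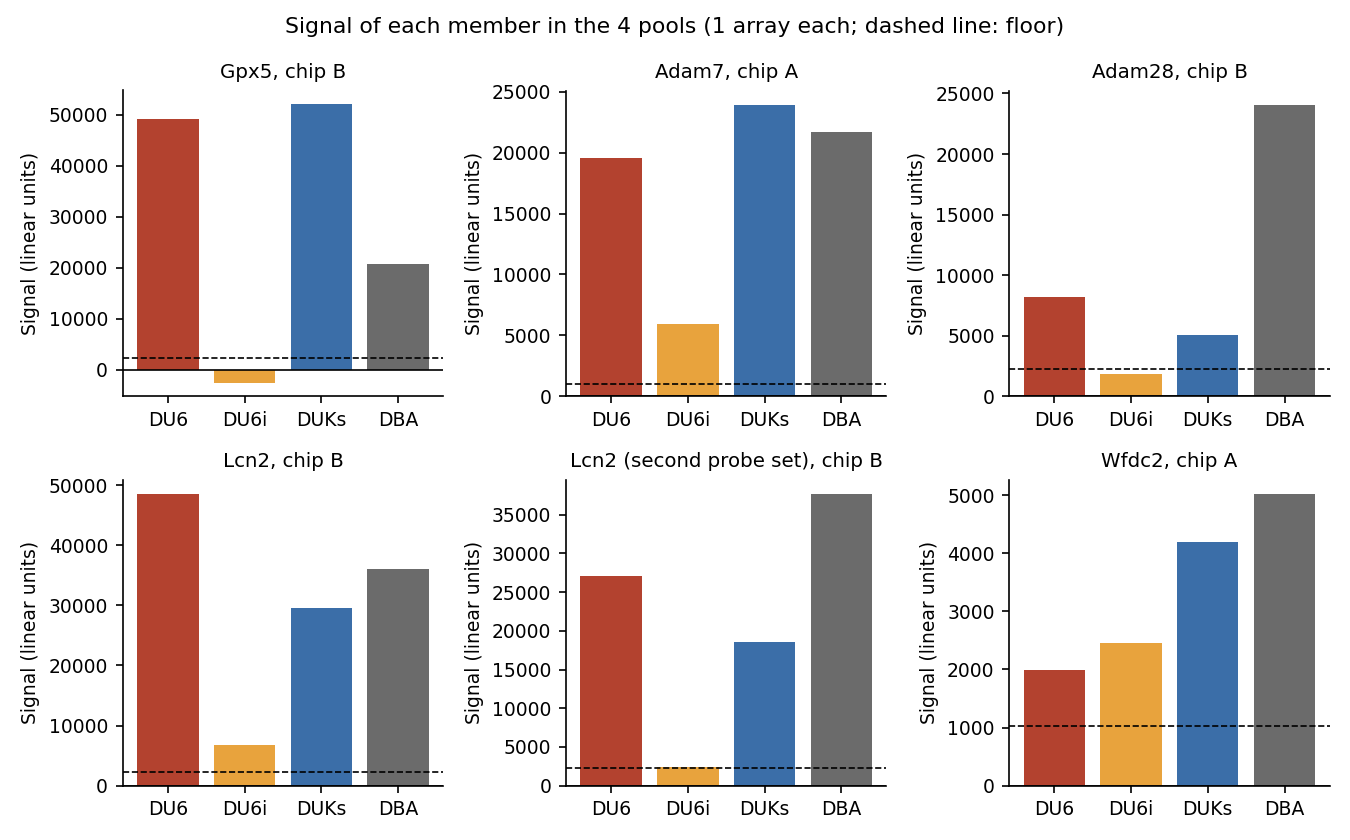
Linear signal of each of the 6 probe sets (vertical axis) in the 4 lines (horizontal axis), 1 bar per array, with the floor of the chip as a dashed line. Gpx5 reaches 52044 in DUKs and is below 0 in DU6i, and the bar of DU6i is the lowest in every panel but that of Wfdc2.

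Gpx5 had a signal of 49126 in DU6, -2544 in DU6i, 52044 in DUKs and 20753 in DBA. It was among the bright signals of the DU6 and DUKs arrays and not measurable in DU6i. A negative signal is a feature of this array software and is read here only as under the floor. That of Gpx5 in DU6i ranked 6463 of 6540 probe sets on its array, and without its sign it was larger than the floor. Whether this probe set failed on that array was not tested. DU6 and DUKs, whose ratio was 1.06-fold, did not differ by more than the technical spread, taken as the SD of a single log2 ratio from genes with 2 probe sets (0.44 for this pair). Gpx5 was at least 21.8-fold higher in DU6 than in DU6i. Set against DBA, DU6i was at least 9.19-fold lower. These bounds move with the floor. DUKs was 2.51-fold above DBA, a log2 ratio of 1.33 against a technical SD of 0.41, and the 99th percentile of the 2 arrays differed in the same direction.

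Adam7 had a signal of 19574 in DU6, 5914 in DU6i, 23896 in DUKs and 21665 in DBA. It was above the floor in all 4 lines, so its ratios are measured on both sides. DU6, DUKs and DBA lay within 1.22-fold of each other, and DU6i lay below them by 3.31-fold, 4.04-fold and 3.66-fold. Of the 5 genes it showed the smallest range among those 3 lines. The bright end of chip A was highest in DU6i, where Adam7 was lowest.

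Adam28 had a signal of 8176 in DU6, 1846 in DU6i, 5106 in DUKs and 24037 in DBA. The DU6i signal was under the floor. Unlike Adam7, it also differed among the other lines: DUKs was 4.71-fold below DBA and DU6 2.94-fold below DBA. DU6 exceeded DUKs by 1.60-fold, and DU6i was at least 10.6-fold below DBA. Against DU6 and DUKs the bounds for DU6i were smaller, at least 3.62-fold and at least 2.26-fold lower. Over the 4 lines Adam28 therefore ran in the order DBA, DU6, DUKs and DU6i, and its neighbour Adam7 in the order DUKs, DBA, DU6 and DU6i, in which the first 3 lay within the technical spread of each other.

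Lcn2 had a signal of 48487 in DU6, 6788 in DU6i, 29578 in DUKs and 36012 in DBA. Its second probe set, also on chip B, gave 27050, 2432, 18557 and 37640 in the same lines. Both were above the floor in every line and both were lowest in DU6i. The main probe set put DU6i 5.31-fold below DBA and DU6 7.14-fold above DU6i, and the second put these ratios at 15.5-fold and 11.1-fold. The probe sets disagreed on which line was highest, DU6 by the main one and DBA by the second. DU6 lay above DUKs by 1.64-fold and 1.46-fold in the main and second probe set, and DUKs lay below DBA by 1.22-fold and 2.03-fold. By the array maker's naming, both Lcn2 probe sets and those of Gpx5 and Wfdc2 can match more than one sequence, while those of Adam7 and Adam28 are of the plain kind.

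Wfdc2 had a signal of 1992 in DU6, 2463 in DU6i, 4200 in DUKs and 5014 in DBA. It was above the floor in all 4 lines, and its lowest line was DU6. DU6 was 2.11-fold below DUKs and DU6i 2.04-fold below DBA, log2 ratios of -1.08 and -1.03. DU6 and DU6i differed by a log2 ratio of -0.31 and DUKs and DBA by -0.26, both within the technical SD of those pairs (0.46 and 0.41). DU6i was 1.70-fold below DUKs (log2 ratio -0.77, technical SD 0.40), short of 2-fold.

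**Figure D2:**
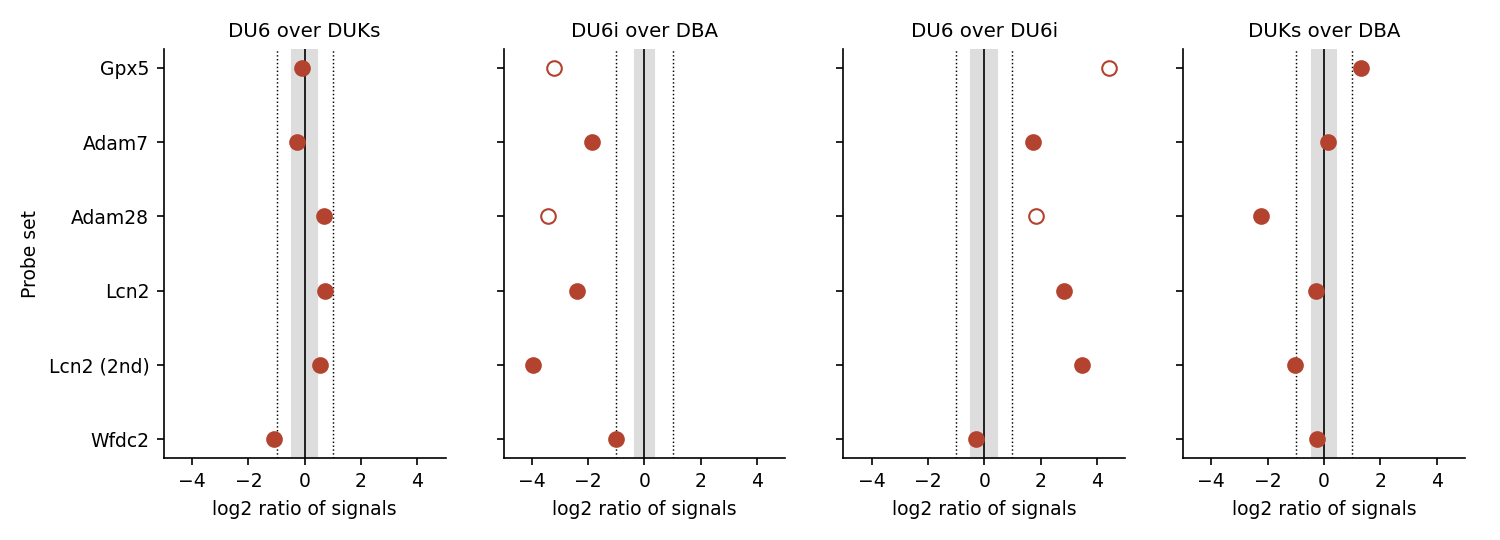
Log2 ratio of signals (horizontal axis) of the 6 probe sets in 4 pairs of lines, with open circles for ratios against the floor, a grey band for plus or minus 1 technical SD and dotted lines at 2-fold. The circles lie left of 0 throughout DU6i over DBA and right of 0 in DU6 over DU6i for all but Wfdc2.

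The first main pair set the selected line DU6 against its control DUKs. None of the 5 genes was at least 2-fold higher in DU6 and 1, Wfdc2, was at least 2-fold lower, beside 3.91% and 6.3% of 5604 probe sets. The median log2 ratio of the 5 genes was -0.08, and that of all probe sets 0.05. The second main pair set DU6i against DBA. All 5 genes were at least 2-fold lower in DU6i, and 6.68% of 5556 probe sets were. Wfdc2 was just past that limit and fell short of it after quantile normalisation (log2 ratio -0.87), after rescaling to the median of probe sets above the floor and with log2(signal + floor), each of which left 4 of the 5. Their median log2 ratio was -2.41, and that of all probe sets -0.03.

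The pairs within each side of the study were DU6 with DU6i and DUKs with DBA. In DU6 against DU6i, 4 of the 5 genes lay at least 2-fold higher in DU6 and none lower, beside 4.8% and 5.7% of 5478 probe sets, and the median log2 ratio was 1.86. In DUKs against DBA, Gpx5 was at least 2-fold higher in DUKs and Adam28 at least 2-fold lower (6.01% and 5.29% of 5691). The middle control probe set of pyruvate carboxylase (one of several such controls), a sign of how far labelled RNA reaches toward the 5′ end, gave on chip A 15.3% of the 3′ signal in DU6, 54.5% in DU6i, 53.9% in DUKs and 19.5% in DBA, and on chip B 12.7%, 45.3%, 55.6% and 14.3%. Other controls paired the lines differently: the middle actin probe set on chip A gave 70.1% in DU6, 46.3% in DU6i, 66.0% in DUKs and 47.2% in DBA, and the 5′ Gapdh probe set on chip B 69.3%, 110.9%, 71.1% and 115.9%. The part of RNA quality in the ratios was not tested. Against DUKs, 4 of the 5 genes were at least 2-fold lower in DU6i and none higher, beside 6.76% and 3.39% of 5579 probe sets. Gpx5 was lower by at least 23.0-fold in that pair. Against DBA, Gpx5 was 2.37-fold higher in DU6 (3.79% of 5491 at least 2-fold higher), while Adam28 and Wfdc2 were 2.94-fold and 2.52-fold lower (4.17%). All these pairs draw on the same 4 pools and share arrays.

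Across both sides together, limma compared DU6 and DU6i with DUKs and DBA, taking the lines as replicates. None of the 5 genes passed an adjusted p of 0.05, and 0% of 5267 probe sets did. At an unadjusted p under 0.05 there were 252. Wfdc2 had the smallest unadjusted p of the 6 probe sets (0.0102, limma), with a log2 difference of -1.05 ± 0.29 (SE, n = 2 lines a side), and its adjusted p was 0.978. Gpx5 had a difference of -1.64 ± 1.45 (SE) with an adjusted p of 0.99978 by limma, its levels in DU6 and DU6i lying further apart than the sides. Without DU6, DU6i stands alone on its side with no spread of its own, so only the size of the differences is given. The log2 difference was then -3.86 for Gpx5, whose DU6i value is the floor. It was -3.44 for the second Lcn2 probe set, -2.27 for the main one, -1.94 for Adam7, -2.29 for Adam28 and -0.90 for Wfdc2. Without DU6i these were 0.58, 0.03, 0.57, -0.22, -0.44 and -1.20 in the same order.

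Other genes of the epididymal epithelium gave a broader view of the same tissue. Of 18 such genes on the arrays, 13 were above the floor in at least 1 line, and Cftr, Hoxa11, Dpp4, Tmprss2 and Aoc1 were above it in none. In DU6i against DBA, none of 11 measured genes was at least 2-fold higher in DU6i and 6 were at least 2-fold lower, with a median log2 ratio of -1.05. That median is a ratio against the floor and was -0.17 with the floor doubled. In DU6 against DUKs the median was 0.01, with 1 of 11 at least 2-fold higher and 2 lower. Against all of the other 3 lines, 2 of the 9 genes measured in them were at least 2-fold lower in DU6i, Pemt and Plac8. The summed signal of the 10 genes on chip A was 75149 in DU6, 58673 in DU6i, 106712 in DUKs and 81134 in DBA, and that of the 3 on chip B was 53586, 24295, 56842 and 27899.

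Pemt, which makes phosphatidylcholine by methylation, had signals of 5506 in DU6, 631 in DU6i, 2507 in DUKs and 4551 in DBA, and DU6i was at least 4.45-fold below DBA. Plac8 had 8505, 3383, 7892 and 7506 in these lines, 2.22-fold lower in DU6i than in DBA. Both have their lowest level in DU6i, as have Cuzd1 and Car2, a carbonic anhydrase of the acid-secreting cells of the duct. Car2 had 5425 in DU6, 3080 in DU6i, 3402 in DUKs and 6489 in DBA. Its log2 ratio of DU6i over DUKs, -0.14, was within the technical SD of that pair (0.40). Cuzd1 had signals of 15336 in DU6, 8464 in DU6i, 18333 in DUKs and 17701 in DBA, with DU6, DUKs and DBA close together as for Adam7. Ros1, a receptor kinase needed for the initial segment of the mouse epididymis to form, passed the floor only on the DBA array, at 5719, as did the defensin Defb1, at 2118. Clu, which encodes the sperm-coating protein clusterin and is widely made elsewhere, did not share the pattern. Its signal was 11218 in DU6, 16998 in DU6i, 30355 in DUKs and 19134 in DBA. Which cells gave these signals was not tested, for Pemt and Plac8 as for Clu. Of the 13 genes, 8 were lowest in DU6i, 2 in DU6 (Clu and Cd52) and 3 in DBA (Ptgds, Mfge8 and Car4). In DU6i and DBA, Ptgds had 4145 and 4058, Mfge8 23309 and 21108, and Car4 5066 and 2778.

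Most general epithelial markers showed DU6i low and DBA high. In DU6i against DBA, 10 of 15 measured markers were at least 2-fold lower in DU6i and none higher, with a median log2 ratio of -1.52. Short of that limit, 2 lay higher in DU6i: Jup (3835, and 73 in DBA, under the floor) and Pkp2 (5732, and 5362 in DBA). In DU6i against DUKs, 2 of 13 were at least 2-fold lower in DU6i and none higher, with a median of -0.57. Of the 12 above the floor in the other 3 lines, DU6i lay below each of them by at least 2-fold in 2, Dsp and Prom1, of which Prom1 was named after its values were seen. Dsp, of the desmosome, had signals of 3826 in DU6, 1094 in DU6i, 2482 in DUKs and 6033 in DBA. Cdh1 (E-cadherin) had 6018, 3919, 4721 and 12772 in these lines, and Spint2, a membrane protease inhibitor, had 5448, 1118, 3489 and 6668. In DUKs against DBA, 8 of 15 markers were at least 2-fold lower in DUKs, as Adam28 was and Adam7 was not. At least 2-fold higher in DUKs was 1, Jup. Over all probe sets 5.29% were lower and 6.01% higher. In DU6 against DUKs the median was 0.57, with 1 of 13 at least 2-fold higher and 1 lower.

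**Figure D3:**
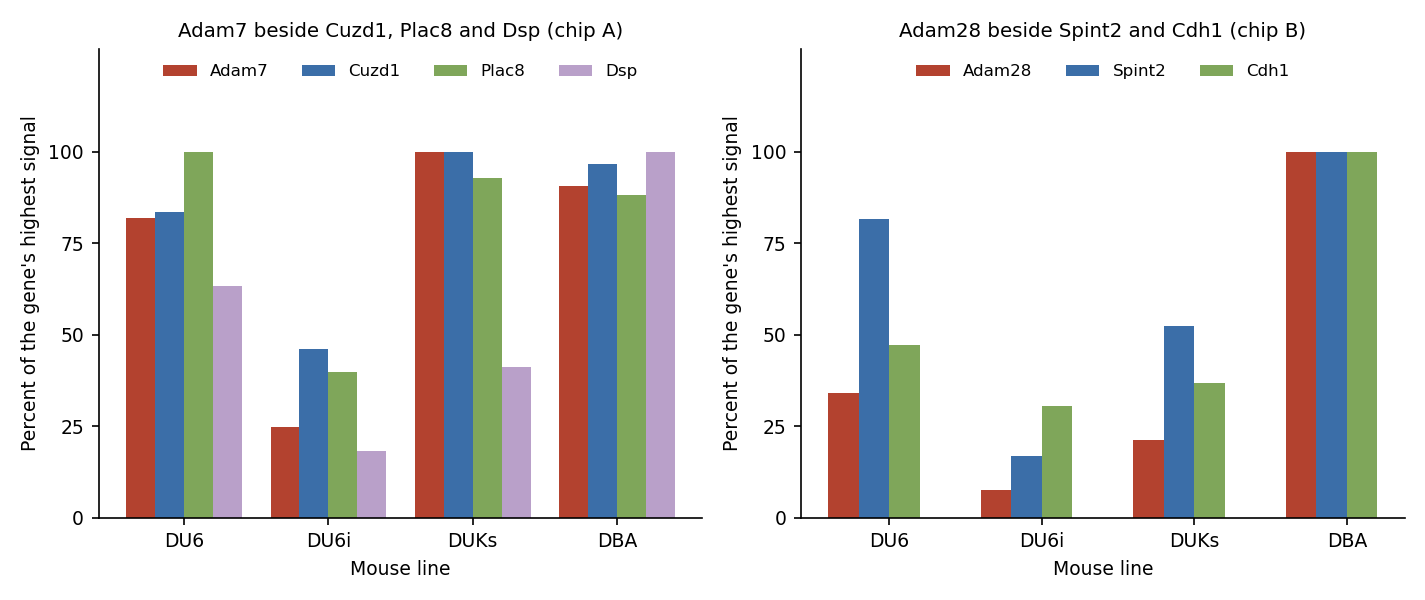
Signal as a percent of each gene's own highest signal (vertical axis) in the 4 lines (horizontal axis) for Adam7 beside Cuzd1, Plac8 and Dsp (left) and Adam28 beside Spint2 and Cdh1 (right), 1 bar per array. Adam7 stands at 24.8% in DU6i and above 80% in the other lines, while Adam28 reaches its highest signal in DBA as Spint2, Cdh1 and Dsp do; the DU6i bars of Adam28 and Spint2 are under the floor.

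Markers of other cell types in the pools had other patterns. Of 18 testis and germ cell markers, all were at least 2-fold lower in DU6 than in DUKs (median log2 ratio -1.84), where Gpx5 and Adam7 differed by -0.08 and -0.29. In DU6i against DBA, 8 of 13 were at least 2-fold lower and none higher. Their summed signal on chip A was 35534 in DU6, 31030 in DU6i, 155219 in DUKs and 75461 in DBA, and on chip B 30045, 22251, 155413 and 52743. In DU6 against DU6i, 2 of 11 lay at least 2-fold higher in DU6, 1 lower. Odf1, a sperm tail gene of chip B, had signals of 9670 in DU6, 1866 in DU6i (under the floor), 44685 in DUKs and 14282 in DBA. Seminal vesicle and accessory gland genes were lower at 2-fold or more in 2 of 3 measured genes in DU6 against DUKs and in 3 of 5 in DU6i against DBA. The first 2 are Sbp (21028) and Spink1 (5876), above the floor in DUKs alone. The other 3 are Svs2 (19923), Svs4 (42807) and Svs5 (43837), above it in DBA alone. These counts thus rest on genes measured in single control pools.

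Most adipocyte markers ran the other way in the second pair, but few of them by 2-fold. In DU6i against DBA, 12 of 14 had a higher signal in DU6i, with a median log2 ratio of 0.81. At 2-fold or more, 1 was higher and none lower, beside 4.79% and 6.68% of all probe sets. In DU6i against DUKs, 11 of 14 had a higher signal in DU6i. At 2-fold or more, 1 was higher and 1 lower there, beside 3.39% and 6.76%. On chip A, Lpl (lipoprotein lipase) had signals of 7001 in DU6, 27218 in DU6i, 19095 in DUKs and 15474 in DBA. On chip B, Dgat2, an enzyme of triglyceride synthesis, had 72761, 19303, 90083 and 35559, 4.67-fold lower in DU6i than in DUKs and 1.84-fold lower than in DBA. Of the other bright markers of that chip, named after their values were seen, Cidec, Cd36 and Gpd1 were 1.22-fold, 1.29-fold and 1.22-fold higher in DU6i than in DBA. Against DUKs, Cidec and Gpd1 were 1.70-fold and 1.92-fold lower in DU6i, and Cd36 was 1.03-fold higher. Against DU6, Cidec, Cd36 and Gpd1 were 1.56-fold, 1.03-fold and 1.78-fold lower in DU6i. The summed signal of adipocyte markers on chip A was 124586 in DU6, 310095 in DU6i, 203428 in DUKs and 157464 in DBA, and on chip B 246332, 141936, 268860 and 135918. The part of the chip and of the tissue mix in the ratios of the 5 genes was not tested.

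**Figure D4:**
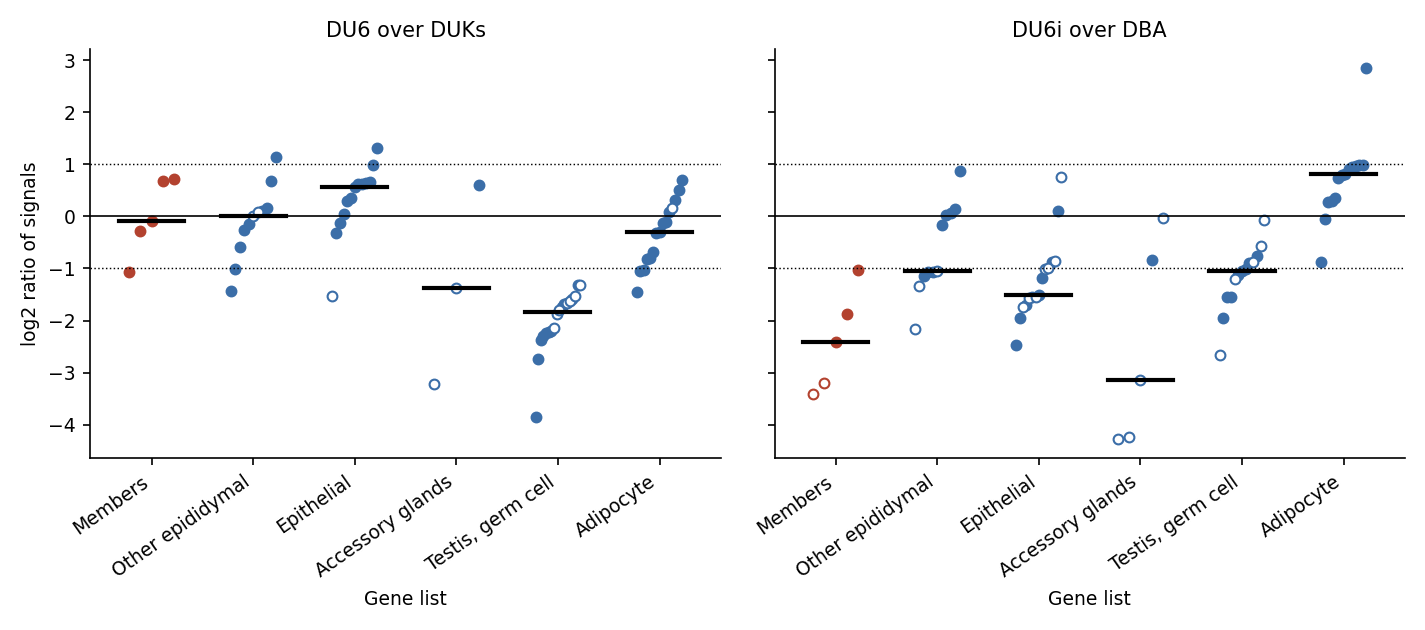
Log2 ratio of signals (vertical axis) of each measured gene in 6 gene lists (horizontal axis) for DU6 over DUKs (left) and DU6i over DBA (right), with open circles for ratios against the floor, black bars at list medians and dotted lines at 2-fold. In DU6i over DBA the medians are -2.41 for the 5 genes, -1.05 for other epididymal genes (-0.17 with the floor doubled), -1.52 for epithelial markers and 0.81 for adipocyte markers.

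Lcn2 is also known from neutrophils and from acute inflammation, so both lists were read beside it. Of neutrophil markers, 1 of 4 measured was at least 2-fold higher in DU6i than in DBA and none lower, and in DU6 against DUKs 3 of 7 were at least 2-fold lower and none higher. In those pairs Lcn2 was 5.31-fold lower in DU6i and 1.64-fold higher in DU6. Of acute-phase genes, 2 of 13 were at least 2-fold higher and 4 lower in DU6i against DBA (median -0.20). Saa3, an acute-phase protein made in fat, had signals of 6685 in DU6, 2123 in DU6i, 16602 in DUKs and 2521 in DBA, and was thus low in both DU6i and DBA, where Lcn2 was low in DU6i alone. For Adam28, B lymphocyte markers gave 0 of 4 at least 2-fold different in DU6i against DBA, with a median of 0.12. Cd79b and Blk, among these 4, lay close to the floor. In DU6i against DUKs 2 of 5 were at least 2-fold lower and 0 higher, and in DU6 against DU6i 1 of 4 was higher and 0 lower. Ms4a1 had 3185 in DU6, 1415 in DU6i, 6080 in DUKs and 2680 in DBA. The part of lymphocytes in the Adam28 signal was not tested.

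Relatives of the 5 genes by protein family had other patterns as well. The signal of Gpx3, the plasma enzyme of the glutathione peroxidase family, was 44146 in DU6, 34611 in DU6i, 64239 in DUKs and 31549 in DBA. Of 10 measured members of the ADAM family other than Adam7 and Adam28, 1 was at least 2-fold higher and none lower in DU6i against DBA. Adam2, Adam3 and Adam5, the first 2 of which are needed for mouse sperm to bind or reach the egg, were above the floor in DUKs and DBA alone. Adam3 had 1184 in DU6, 627 in DU6i, 10187 in DUKs and 3599 in DBA, the order of the germ cell markers. Of 7 measured lipocalins, 2 were at least 2-fold higher in DU6i than in DBA and none lower. Among them Mup5, a major urinary protein, had 1360 in DU6, 7458 in DU6i, 3905 in DUKs and 3105 in DBA. Slpi, the single measured relative of Wfdc2 with a whey acidic protein domain, had 11956, 9235, 8391 and 5501 in these lines, highest in DU6, where Wfdc2 was lowest.

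The genes with the most similar level across the 4 lines were found by the root mean square distance of log2 signals, each centred on its own mean over the 4 arrays, among 2626 named genes of chip A and 695 of chip B. With 4 points this is a description. Nearest to Adam7 were Pdzk1ip1 (0.09), Mt3 (0.14), Klc4 (0.19), Tagln3 (0.22) and Man1a (0.23). Nearest to Gpx5 were Gm10486 (0.89), Lcn2 (0.90), Odf1 (0.93), Dgat2 (1.04) and Saa3 (1.22). The DU6i values of Gpx5, Gm10486, Odf1 and Saa3 were under the floor and set to it, as was that of Adam28, so distances that involve them rest in part on a level not measured. Nearest to Adam28 were Emid1 (0.30), Egr2 (0.34), Hoxb6 (0.38), Hoxb7 (0.48) and Sap30bp (0.52). Nearest to the main Lcn2 probe set were Hoxb6 (0.45), Btg3 (0.46), Basp1 (0.50), Wars (0.51) and Myb (0.58), so that Hoxb6, a homeobox gene of the body axis, was in both lists. Nearest to Wfdc2 were Vdac2 (0.10), Igtp (0.11), Mgst3 (0.12), Slc27a2 (0.15) and Snrpc (0.17). Also set to the floor were the DU6i values of Emid1, Egr2, Sap30bp, Myb and Igtp. The same holds for Igtp and Slc27a2 in DU6 and for Sap30bp in DUKs. Between the 5 genes, the distance was 0.81 for Adam28 and Lcn2, 0.90 for Gpx5 and Lcn2, 1.56 for Gpx5 and Adam28, and 0.73 for Adam7 and Wfdc2, beside 0.55 between the 2 Lcn2 probe sets.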

How the data were processed

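RNA pools of 20 males for each of 4 lines were read on 8 arrays. The deposited intensity values were made by the authors, per the labels, in Data Mining Tool 1.2 and Microarray Suite 4.0.1, with every array scaled on the whole of its probe sets. Scaling fixes the mean of an array and not its range. Values below 0 made up 12.8% to 30.5% of an array. Detection calls were not used, and the 110 AFFX control probe sets were left out of the comparisons. The number of arrays limits the precision.

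Symbols came from the platform annotation, updated through a RefSeq table. On chip A 5560 probe sets had 1 symbol, 197 several and 827 none, and on chip B 2001, 27 and 4567. Of several probe sets of a gene the one with the highest mean signal was used. For the floor, the negative signals of a chip were taken without their sign and their 95th percentile was used. Signals were raised to it before log2, and a probe set entered a pair when 1 of the 2 arrays was above it. limma 3.58.1 (R 4.3.3; lmFit, eBayes, Benjamini-Hochberg over both chips) was run on probe sets that 2 or more arrays had above the floor, and its code was tested on simulated data. DU6i derives from DU6, so lines are not independent replicates. Technical spread came from 338 to 355 genes with 2 probe sets a pair, the 5 genes left out, and covers differences between probe sets, not between animals.

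The members, gene lists and tests were chosen with earlier results of these data known. Outside the members, named genes are list genes at least 2-fold apart in either main pair (up to 6 a list) or above the floor in 1 line alone. Genes nearest in profile, and adipocyte and RNA controls, are named as well. Where outside this rule, Gpx3, Adam2, Adam5, Slpi, Saa3, Cftr, Hoxa11, Dpp4, Tmprss2 and Aoc1 were named after their values were seen. So were Ptgds, Mfge8, Car4, Cd52, Jup, Pkp2, Ms4a1, Cd79b and Blk. Alternatives were the floor halved or doubled, log2(signal + floor), quantile normalisation, rescaling to the median of probe sets above the floor, other probe sets, no filter and leaving out each line. The pairs DU6 with DBA and DU6i with DUKs, and the count against all 3 lines, were added after seeing the data.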

Additional observations from a re-analysis of the deposited data

Results flagged for a closer look

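Adam28 and Lcn2 each changed direction between the main pairs, with the ratios of the first pair short of 2-fold. Adam28 was higher in DU6 than in DUKs (log2 ratio 0.68) and lower in DU6i than in DBA (-3.41), a difference of 4.09 between the log2 ratios. Lcn2 was higher in DU6 than in DUKs (0.71) and lower in DU6i than in DBA (-2.41), a difference of 3.12. With 1 pool a line, these differences were not tested. The technical SD of a single log2 ratio was 0.44 for DU6 over DUKs and 0.34 for DU6i over DBA, and the second Lcn2 probe set gave 0.54 and -3.95. For Adam28 the size depends on the floor, since DU6i was under it.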

How the results depend on the processing

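Of 104 log2 ratios of the members under other settings, 90 moved by less than the technical SD, 14 moved further, and 0 of the ratios at 2-fold or more changed sign. In DU6i over DBA, Gpx5 was -4.20 with the floor halved and -2.20 with it doubled, Adam28 -2.41 with it doubled and -2.68 with log2(signal + floor), and Lcn2 -2.84 after quantile normalisation and -3.95 by its second probe set. In DU6 over DU6i, Gpx5 was 5.44 with the floor halved and 3.44 with it doubled, Adam28 0.86 with it doubled and 1.35 with log2(signal + floor), and Lcn2 3.48 by its second probe set. In DUKs over DBA, Lcn2 was -0.76 after quantile normalisation and -1.02 by its second probe set. Adam7 in DU6 over DUKs turned to 0.29 after quantile normalisation. The count of members at least 2-fold lower in DU6 than in DUKs was 0 with log2(signal + floor), and the count at least 2-fold below all 3 lines in DU6i was 3 or 4, Adam28 being lost with the floor doubled. The median of other epididymal genes in DU6i over DBA was -0.17 with the floor doubled. limma called 4 probe sets with no filter and between 0 and 17 when a line was left out, when the lone line of a side is assumed to vary like the others. Over these fits the log2 difference of Gpx5 ranged between -3.86 and 0.58, that of Lcn2 between -2.27 and 0.57 and that of its second probe set between -3.44 and 0.034, the positive ones without DU6i and the lowest without DU6. The cause was not tested. No paired analysis was possible because each line has 1 array per chip and the labels give no replicate number. Genes near or under the floor have only bounds.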
